A study of Ovis aries with 16 samples.

Results

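*EPOR*, *ANK1*, *CPOX* and *TFRC* are 4 genes of red cell formation, measured here by bulk RNA sequencing in the livers of 16 sheep fetuses. They were picked by name from the 26478 genes of the count table, through the identifiers that the study's supplementary gene list pairs with symbols. That list holds genes selected on the difference between hypoxic and control livers in these same animals, and the 4 genes were picked with their joint variation already known. Their differences between groups and their correlations with each other are therefore given as descriptions, and nothing is read from a test of them.

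All livers came from singleton fetuses of Welsh Mountain ewes and were taken at 0.9 of gestation. In the CON group the ewes breathed normal air (normoxia, 9 fetuses, 5 male and 4 female). In the HOX group the ewes were kept at 10% inspired O2 for 30 days per the labels (hypoxia, 7 fetuses, 3 male and 4 female). Each liver was 1 fetus and 1 library of whole tissue, and the animal numbers used below name fetuses within a group.

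Before birth the liver makes red cells as well as serving as a metabolic organ. Erythroid progenitors settle among the hepatocytes, divide, fill with haemoglobin and leave for the blood. Erythropoietin keeps these progenitors alive through its receptor, *EPOR*. The transferrin receptor *TFRC* brings in the iron, *CPOX* (coproporphyrinogen oxidase) carries out a late step of haem synthesis, and *ANK1* (ankyrin) ties the membrane skeleton to the red cell membrane. In whole liver, fewer cells of a type and less RNA per cell cannot be told apart.

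Depth ranged from 23955166 to 33952503 counted reads per liver, with medians of 27762095 in CON and 25055592 in HOX. Of all genes, 8580 had at least 250 reads in at least 8 livers and were tested, the 4 erythroid genes among them. Names came from the supplementary list of 487 identifiers, of which 477 were tested, so a named gene was nearly sure to be tested. Of 25 listed hepatocyte markers, 16 could be named, and 16 of 16 were tested. Their summed level was 23453 to 34488 CPM (reads per gene scaled to the size of the library) in CON and 16387 to 26025 CPM in HOX. On the first principal component, which held 25.6% of the variance, the liver of HOX animal 1 stood apart at -64.4, against -6.23 to 15.6 for the other livers. Values without it are given beside many of the results below but not all, so a value printed alone may depend on it.

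*EPOR*, the erythropoietin receptor (ENSOARG00020008807), was lowest in CON animal 6 at 7.20 CPM, had a CON median of 9.20 CPM and was highest in CON animal 5 at 26.0 CPM. In HOX it ran from 8.68 CPM in animal 1 through a median of 19.4 CPM to 53.0 CPM in animal 4. The groups overlapped widely. The CON mean was exceeded in 5 of 7 HOX livers and the highest CON liver in 3. The means were 13.0 ± 6.96 CPM in CON (SD, n = 9) and 24.8 ± 16.3 CPM in HOX (SD, n = 7), a log2 fold change of 0.93 ± 0.379 (SE).

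*TFRC* (ENSOARG00020001942), which takes up iron bound to transferrin, ran from 38.2 CPM in CON animal 3 through a median of 87.8 CPM to 158 CPM in CON animal 4. HOX livers ran from 60.2 CPM in animal 1 through 112 CPM to 222 CPM in animal 7. For this gene 6 of 7 HOX livers lay above the CON mean and 3 above the highest CON liver. The log2 fold change was 0.67 ± 0.308 (SE), with means of 88.5 ± 40.9 CPM in CON (SD, n = 9) and 141 ± 64.7 CPM in HOX (SD, n = 7).

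*CPOX* (ENSOARG00020000483), the haem synthesis enzyme, ran from 29.3 CPM in CON animal 6 through a median of 40.7 CPM to 97.7 CPM in CON animal 5. In HOX it ran from 43.6 CPM in animal 5 through 76.6 CPM to 137 CPM in animal 7. Here 6 of 7 HOX livers exceeded the CON mean and 3 exceeded every CON liver. The means were 52.2 ± 24.6 CPM in CON (SD, n = 9) and 89.6 ± 34.2 CPM in HOX (SD, n = 7), a log2 fold change of 0.78 ± 0.281 (SE).

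*ANK1* (ENSOARG00020024995), the membrane skeleton gene, ran from 81.8 CPM in CON animal 6 through a median of 121 CPM to 262 CPM in CON animal 5. In HOX it ran from 113 CPM in animal 1 through 198 CPM to 382 CPM in animal 4. Again 5 of 7 HOX livers exceeded the CON mean, and 2 exceeded every CON liver. The log2 fold change was 0.64 ± 0.264 (SE), with means of 143 ± 57.6 CPM in CON (SD, n = 9) and 224 ± 95.5 CPM in HOX (SD, n = 7).

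**Figure D1:**
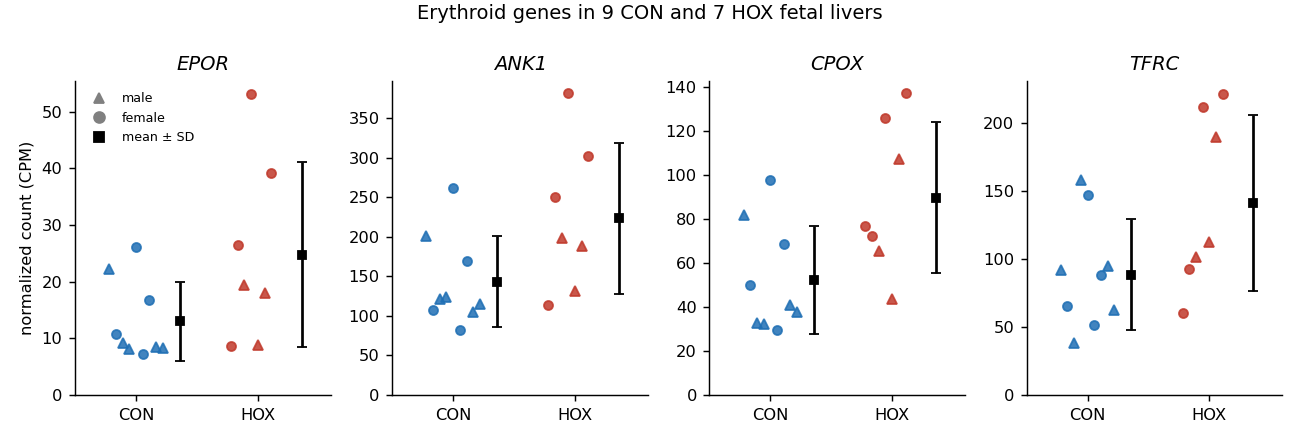
Normalized counts (CPM, linear axes from 0) of the 4 erythroid genes in each liver, CON in blue and HOX in red, males as triangles and females as circles, with the group mean ± SD as black squares and bars. The groups overlap in every panel, and the highest HOX livers, animals 4 and 7, reach 53.0 CPM for *EPOR* and 222 CPM for *TFRC*.

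The counts in this paragraph come from the contrast on which the genes had been selected and are no evidence about them. In the fit across all genes (edgeR's quasi-likelihood test, Benjamini-Hochberg adjustment, threshold 0.15), 0 of the 4 were called between HOX and CON, where 0.0583% of the 8580 genes were called. At an unadjusted *P* under 0.05 the fit picked 4 of 4, and 11.9% of all genes. DESeq2 also called 0 of the 4, and 237 of all genes (2.76%). The study, using DESeq2 at the same threshold, reported 487 genes and described *EPOR* as higher in HOX. The cause of this difference from the published calls was not tested. For 0 of the 4 were the groups separated without overlap, against 0.0816% of all genes. All 4 were higher in HOX in each fit that left out 1 liver, with log2 fold changes of 0.64 to 1.13 for *EPOR*, 0.48 to 0.82 for *ANK1*, 0.65 to 0.96 for *CPOX* and 0.53 to 0.84 for *TFRC*. Without HOX animal 4, the liver with the highest *EPOR*, or without HOX animal 7, 1 of the 4 was left at an unadjusted *P* under 0.05.

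The spread between livers of the same group was large for these genes. The highest CON liver exceeded the lowest 3.62-fold for *EPOR*, 3.21-fold for *ANK1*, 3.33-fold for *CPOX* and 4.13-fold for *TFRC*. Among HOX livers these folds were 6.11, 3.37, 3.14 and 3.68. Within groups the SD of log2 CPM was 0.83, 0.57, 0.61 and 0.69, against a median of 0.27 over all tested genes. The SD of *EPOR* was larger than that of 97.1% of tested genes, and that of *ANK1*, the least variable of the 4, was larger than that of 91.5%. Reads behind these values were lowest for *EPOR*, at 169 to 1271 reads per liver, and 11 of 16 livers reached 250 reads for it. *ANK1*, *CPOX* and *TFRC* had 250 reads or more in 16 of 16 livers.

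To place each liver on 1 scale, the geometric mean of the 4 CPM values was taken as an erythroid index. It ran from 30.8 CPM in CON animal 6 through a CON median of 44.1 CPM to 99.7 CPM in CON animal 5, and from 46.3 CPM in HOX animal 1 through a HOX median of 81.6 CPM to 152 CPM in HOX animal 4. The top positions were held by HOX animal 4, HOX animal 7 and CON animal 5, and the bottom positions by CON animals 6, 3 and 9. CON animals 1, 5 and 7 were the high livers of their group, and HOX animals 1 and 5 the low ones of theirs. The index was 53.3 ± 22.6 CPM in CON (SD, n = 9) and 89.9 ± 41.3 CPM in HOX (SD, n = 7).

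**Figure D2:**
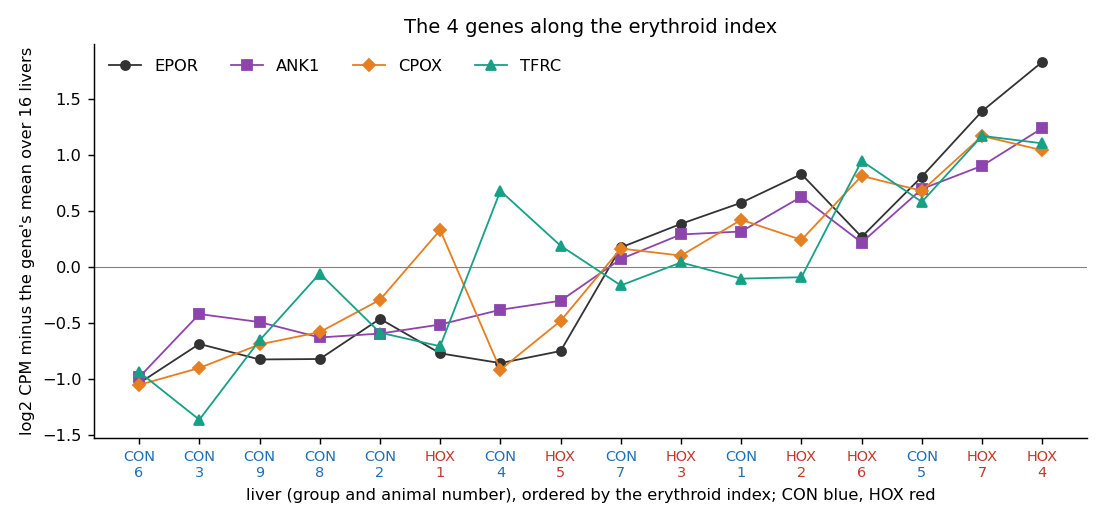
Log2 CPM of each erythroid gene minus its mean over 16 livers (vertical axis), for the livers ordered by the erythroid index (horizontal axis, CON labels in blue, HOX in red). *EPOR* and *ANK1* climb together from CON animal 6 to HOX animal 4, while *TFRC* leaves the line in CON animals 3 and 4 and *CPOX* in HOX animal 1.

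*EPOR* and *ANK1* moved together almost liver by liver. After the group means were removed, their log2 CPM values correlated with Pearson's r = 0.97 and Spearman's rho = 0.92 over 16 livers, with r = 0.95 in CON livers and 0.99 in HOX livers. *ANK1* ranked 4th of 8579 genes in likeness to *EPOR*, and *EPOR* ranked 3rd in likeness to *ANK1*. Without the 2 livers farthest from the median, HOX animals 4 and 7, r was 0.96. These livers share 1 sequencing and counting process, and the values are a description.

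*CPOX* followed the pair less closely. Its correlation within groups was r = 0.85 (rho = 0.80) with *EPOR* and r = 0.81 (rho = 0.71) with *ANK1* over 16 livers. In CON livers its correlation with *EPOR* was r = 0.98 and in HOX livers 0.76. The HOX livers included animal 1, where *CPOX* lay 0.71 log2 units above the value fitted from the other 3 genes. Without HOX animal 1, r with *EPOR* over all livers was 0.91.

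*TFRC* was the loosest of the 4, with r = 0.59 (rho = 0.50) to *EPOR*, 0.65 (rho = 0.61) to *ANK1* and 0.57 (rho = 0.46) to *CPOX* over 16 livers. Without HOX animal 1 the r values were 0.47, 0.54 and 0.60. *TFRC* ranked 677th of 8579 genes in likeness to *EPOR*. Without HOX animals 4 and 7 its r with *EPOR* was 0.42, and without CON animals 4 and 6 its r with *CPOX* was 0.75. The index of the other 3 genes accounted for 39.0% of its variance within groups, against 79.8% for *EPOR*, 85.7% for *ANK1* and 67.6% for *CPOX*. CON animal 4 carried *TFRC* 1.23 log2 units above the value fitted from the other 3, and CON animal 3 carried it 0.84 below (-0.84).

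**Figure D3:**
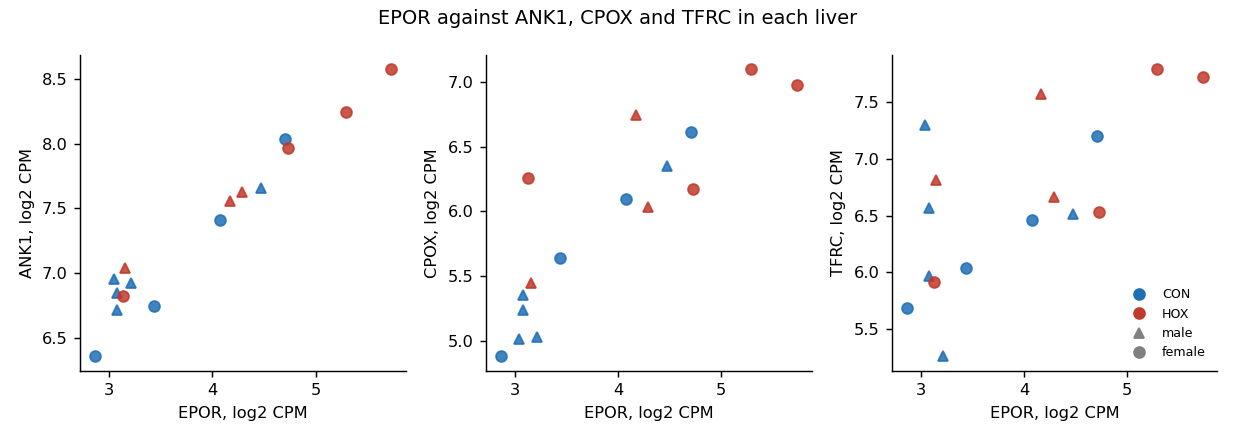
Log2 CPM of *EPOR* (horizontal axes) against *ANK1*, *CPOX* and *TFRC* (vertical axes) in each liver, CON in blue, HOX in red, males as triangles and females as circles. The points lie near a line for *ANK1* (r = 0.97 within groups) and scatter for *TFRC* (r = 0.59).

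None of the 4 genes was called for a difference between the sexes. Females minus males, with treatment in the model, *EPOR* differed by 0.70 ± 0.363 (SE, log2), *CPOX* by 0.48 ± 0.267, *ANK1* by 0.39 ± 0.259 and *TFRC* by 0.05 ± 0.319. The adjusted *P* from edgeR was 0.974 for *EPOR*, and 0 of the 4 were called, where 0.0233% of all genes were called. At an unadjusted *P* under 0.05 the test picked 3.11% of genes. The sign for *TFRC* turned when 1 liver was left out, with values from -0.13 without CON animal 5 to 0.22 without CON animal 4. For the interaction of sex and treatment, edgeR called 0 of 8580 genes, 281 genes (3.28%) had an unadjusted *P* under 0.05, and DESeq2 called 6. The interaction for *EPOR* was 0.61 ± 0.725 (SE, adjusted *P* = 0.999).

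The next question was which other genes followed the gradient. For each of the other 8576 genes, log2 expression was fitted on treatment and on the log2 of the erythroid index, so that the slope gives the log2 change for each doubling of the index among livers of the same group. At an adjusted *P* under 0.15, 697 genes (8.13%) were called, 545 with a positive slope (6.35%) and 152 with a negative one (1.77%). At 0.05 there were 405 (4.72%), of which 387 (4.51%) were positive and 18 (0.21%) negative. CON animal 5, the CON liver highest on the index, carried part of this count: without it 424 genes were called, 357 positive and 67 negative. When libraries were scaled by total counts only, 533 positive and 54 negative genes were called, so that 90.8% were positive in place of 78.2%.

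The positive followers had a median slope of 0.50 (range 0.17 to 1.78), and 111 of 545 had a slope over 1, steeper than in proportion to the index. Of the 545, 498 (91.4%) were higher in HOX than in CON, with a median log2 fold change of 0.29, where 51.2% of all tested genes were higher and their median was 0.01. Of the 545, edgeR called 0 between HOX and CON, and 86 (15.8%) had an unadjusted *P* under 0.05, against 11.9% of all genes. DESeq2 called 23 of the 545, all higher in HOX, where it called 2.76% of all genes, 1.15% as higher. The slope and the treatment difference were fitted on the same livers, and the index genes came from a list selected on that difference. Genes that follow the index can share its difference between groups, so the 91.4% is no independent evidence. The 152 negative followers had a median slope of -0.31, and 71 were higher and 81 lower in HOX. That balance changed without HOX animal 1: 24 of the 151 still tested were higher and 127 lower, while 510 of 541 positive followers (94.3%) were higher.

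Among genes with a symbol, the 8 positive followers with the smallest *P* included 4 that serve cell division. *GPSM2*, which orients the mitotic spindle, had a slope of 1.18 ± 0.122 (SE, adjusted *P* = 1.12e-05, within-group r = 0.94). It ran from 4.17 to 19.2 CPM in CON and from 7.40 to 36.6 CPM in HOX. *SMC2*, a condensin subunit that compacts chromosomes, had a slope of 1.07 ± 0.142, and *ORC1*, which marks origins of replication, 1.22 ± 0.186. *TONSL*, which repairs stalled replication forks, had the lower slope of 0.54 ± 0.0858. With *POLA2*, a subunit of the polymerase that primes replication (slope 0.40 ± 0.0893), 5 of 5 tested genes of the DNA replication and cell division list were called positive, against 6.35% of all genes. Their median slope was 1.07, and 5 of 5 were higher in HOX. A closer background for the slopes is the 425 tested genes with a symbol other than the index genes, of which 43 were called positive. Of the 40 genes on that list 7 could be named, all through the list selected on these livers, so their direction between groups is no independent evidence. The list was also chosen with earlier results of these data known, and 4 of the 5 were among the 8 above. The 5 of 5 is therefore a description.

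The other 4 were *PLAGL1*, *ICAM5*, *FADS3* and *FBXO9*. *PLAGL1*, an imprinted zinc finger transcription factor, had the steepest slope of the 8 at 1.41 ± 0.15 (SE, adjusted *P* = 1.34e-05). It ran from 9.41 CPM through a median of 25.1 CPM to 87.8 CPM in CON and from 27.5 CPM through 81.3 CPM to 167 CPM in HOX, so that 6 of 7 HOX livers exceeded the CON mean. Like all 8, *PLAGL1* was named through the list selected on this contrast, so that count is no independent evidence. *ICAM5*, an adhesion molecule of the immunoglobulin family, had a slope of 1.40 ± 0.197, *FADS3* of the fatty acid desaturase family 1.04 ± 0.158, and *FBXO9*, an F-box protein of a ubiquitin ligase, 0.58 ± 0.0753. All 8 kept a positive slope and their call in each alternative fit in which they were tested, 243 in all. *ORC1* and *FADS3* had few reads and passed the read minimum in 8 of the 16 fits that left out 1 liver.

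The smallest *P* values belonged to genes without a symbol. ENSOARG00020004614 came first, with a slope of 1.53 ± 0.118 (adjusted *P* = 3.42e-06, within-group r = 0.96), and ENSOARG00020026259 had a slope of 1.00 ± 0.0830 (adjusted *P* = 4.69e-06, r = 0.96). Of the 545 positive followers 43 had a symbol. Among 1356 tested genes averaging 100 CPM or more, 58 were positive followers. The most abundant were 3 genes over 500 CPM, none with a symbol and with slopes of 1.10 to 1.71. These 3 took 0.290% of reads in CON animal 4, a median of 0.579% in CON and 1.68% in CON animal 5. In HOX they took 0.530% in animal 1, a median of 1.44% and 3.25% in animal 4. The livers at the ends of the HOX range were thus those at the ends of the index, while in CON the lowest was animal 4 rather than animal 6.

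The lists of erythroid genes held 112 genes, of which 12 other than the 4 could be named and tested. Of these 12, 7 were called with a positive slope and 0 with a negative one, where 6.35% of all genes were called positive. Their median slope was 0.36, against -0.01 for all genes, and 10 of 12 were higher in HOX, against 51.2% of all genes. These 12 were reached through the list selected on these livers, and their direction between groups is again no independent evidence. The closer background for their slopes is the 425 tested genes with a symbol other than the 4, of which 43 were called positive. The erythroid lists were chosen with earlier results of these data known, so the 7 of 12 is a description. Without HOX animal 1, 6 of the 12 were called positive (5.86% of all genes in that fit), and with DESeq2 8 were (7.01% of all genes). Globin genes, the most familiar products of red cells, had 0 named members and were not analysed here.

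Among transporters, *SLC6A9*, which brings in the glycine used for haem, had the steepest slope of the 12 at 1.01 ± 0.161 (SE, adjusted *P* = 0.000446). It ran from 7.29 CPM through a median of 14.6 CPM to 24.8 CPM in CON and from 9.58 CPM through 21.9 CPM to 60.9 CPM in HOX. *SLC11A2*, the divalent metal transporter that moves iron out of endosomes, had a slope of 0.36 ± 0.109 (adjusted *P* = 0.0821), and its call was lost without CON animal 5, HOX animal 4 or HOX animal 5. *ATP2B4*, the calcium pump of the red cell membrane, had a slope of 0.64 ± 0.122 (adjusted *P* = 0.00252). *SLC29A1*, a nucleoside transporter of the same membrane, had a slope of 0.12 ± 0.114 and was not called.

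Of the regulators, *LDB1*, which bridges erythroid transcription factors at distant enhancers, had a slope of 0.36 ± 0.0911 (SE, adjusted *P* = 0.0243), a call lost without CON animal 5. *MXI1*, a MYC antagonist, had a slope of 0.43 ± 0.142 (adjusted *P* = 0.117). Its call was lost in 7 of 16 fits that left out 1 liver, those without CON animals 1, 5, 6 or 9 or HOX animals 1, 4 or 6. *CRKL*, an adaptor of cytokine receptor signalling, had a slope of 0.02 ± 0.0701 whose sign was not stable, from -0.02 to 0.06 in those fits.

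Of the others, *CDAN1*, the gene mutated in a congenital dyserythropoietic anaemia, had a slope of 0.32 ± 0.0980 (SE, adjusted *P* = 0.0802). The call was lost without CON animal 6, HOX animal 1 or HOX animal 4, and without HOX animal 1 the slope was 0.20. *TCP11L2* had a slope of 0.65 ± 0.178 (adjusted *P* = 0.0431), lost without CON animal 5. *FAM117A*, at 0.50 ± 0.181 (adjusted *P* = 0.159), was called in 3 of 16 fits that left out 1 liver, those without CON animal 3, HOX animal 1 or HOX animal 5. Without HOX animal 1, where the gene was lowest, the slope was smaller, at 0.27 ± 0.0794.

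*ALAS1* and *SELENBP1* had negative values for both quantities. *ALAS1*, the housekeeping form of the first enzyme of haem synthesis, is used by hepatocytes as well. It ran from 50.2 to 89.8 CPM in CON and from 37.9 to 64.6 CPM in HOX, where 0 of 7 livers exceeded the CON mean, and its slope was -0.08 ± 0.130 (SE, adjusted *P* = 0.832). Its log2 fold change of HOX against CON was -0.48 ± 0.145 (adjusted *P* = 0.265), while that of *CPOX*, a later enzyme of the same pathway, was 0.78. *SELENBP1*, a selenium-binding protein of red cells and liver, had a slope of -0.10 ± 0.186 and a log2 fold change of -0.67 ± 0.216 (adjusted *P* = 0.292). Neither gene was called for either quantity.

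**Figure D4:**
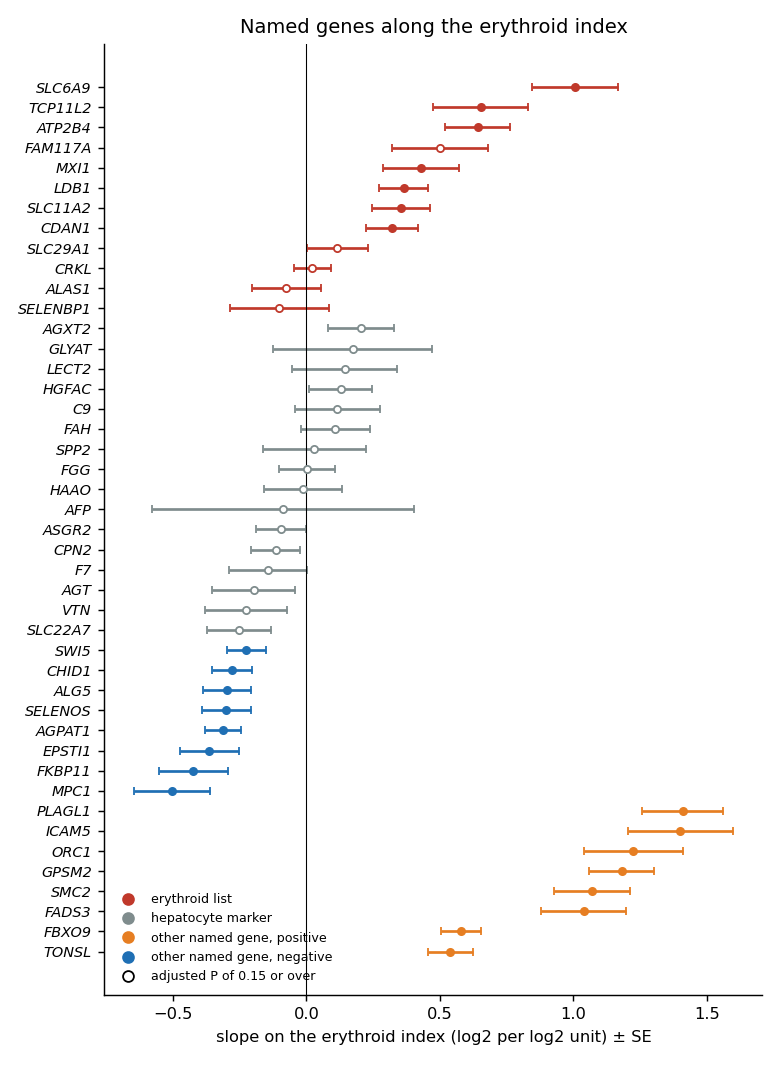
Slope on the erythroid index (log2 change per log2 unit, horizontal axis) ± SE for named genes, in red those of the erythroid lists, in grey hepatocyte markers, in orange and blue the other named genes with positive and negative slopes, filled where the adjusted *P* was under 0.15. *SLC6A9* at 1.01 leads the erythroid lists and *PLAGL1* at 1.41 the others, while the hepatocyte markers scatter around 0 and none is filled.

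The 8 genes with a symbol and a called negative slope of smallest *P* were *AGPAT1* (phospholipid synthesis), *CHID1*, *MPC1* (mitochondrial pyruvate carrier), *ALG5* (N-glycan precursor synthesis), *SELENOS* (endoplasmic reticulum quality control), *EPSTI1*, *FKBP11* (a prolyl isomerase of the endoplasmic reticulum) and *SWI5* (DNA repair). Slopes ran from -0.50 ± 0.141 (SE) for *MPC1* to -0.22 ± 0.0731 for *SWI5*. The smallest *P* was that of *AGPAT1*, with a slope of -0.31 ± 0.0671 (adjusted *P* = 0.00760).

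Several of these calls depended on a single liver. *MPC1* was 95.0 CPM in HOX animal 1 against a HOX median of 32.9 CPM, and without that liver its slope was -0.26. The calls of *ALG5* and *FKBP11* were lost without HOX animal 1 or CON animal 6, and that of *SELENOS* without either or CON animal 5. *EPSTI1* was lost without CON animal 5, and *SWI5* without CON animals 1, 6 or 7 or HOX animal 7. *AGPAT1*, *CHID1* and *MPC1* kept their call in 16 of 16 such fits. Among genes without a symbol, ENSOARG00020001089 (slope -0.97 ± 0.190) and ENSOARG00020010602 (-0.55 ± 0.117) had the smallest *P*.

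Fitted in CON and HOX livers apart, most positive calls of either group had the same sign in the other group, and fewer of the negative calls did. In CON livers alone 340 genes (3.96%) had a called positive slope, and 305 of them (89.7%) were positive in HOX livers, where 50.9% of all genes were positive. Their median slope in HOX livers was 0.67, against 0.01 for all genes, and 196 (57.6%) were also called there. In HOX livers alone 271 genes (3.16%) had a called positive slope, of which 261 (96.3%) were positive in CON livers, where 47.4% of all genes were, and 196 (72.3%) were also called. The shares barely moved without HOX animal 1, at 91.2% and 96.7%. Without CON animal 6, the lowest liver on the index, the CON livers gave 198 positive calls, of which 92.4% were positive in HOX livers.

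Of the 85 genes (0.991%) with a called negative slope in CON livers, 37 (43.5%) were negative in HOX livers, where 49.1% of all genes were. There edgeR called 0 of them, and 6 had an unadjusted *P* under 0.05. Without HOX animal 1, 55 of the 85 (64.7%) were negative, against 51.3% of all genes. Of the 23 (0.268%) called negative in HOX livers, 8 (34.8%) were negative in CON livers, where 52.6% of all genes were, and without HOX animal 1 there were 14 such genes, 7 of them negative in CON. Slopes were also compared between HOX and CON directly. edgeR called 0 of 8576 genes for a difference in slope, and 764 (8.9%) had an unadjusted *P* under 0.05. This comparison was not run with DESeq2.

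**Figure D5:**
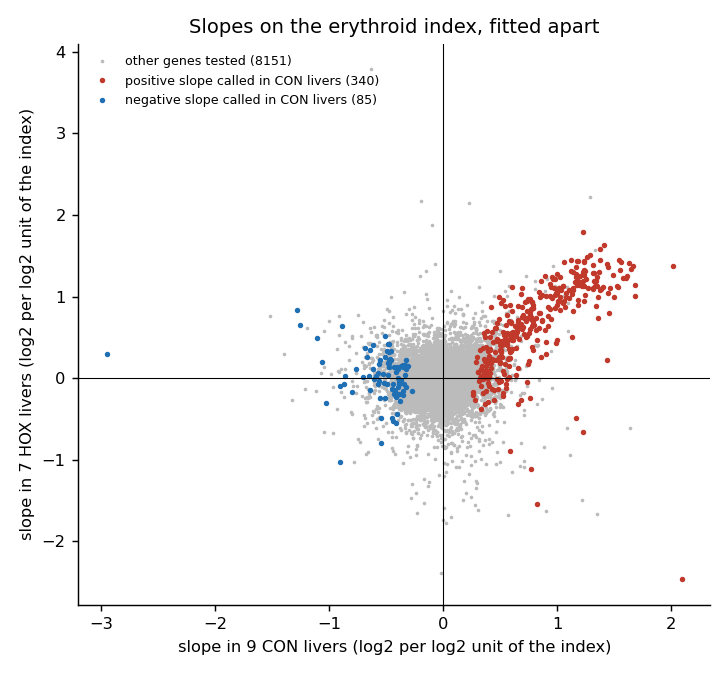
Slope on the erythroid index in 9 CON livers (horizontal axis) against that in 7 HOX livers (vertical axis), both in log2 per log2 unit, for 8576 genes, those called positive in CON in red and those called negative in blue. The red cloud of 340 genes rises to the upper right, with 305 above 0 on the HOX axis, and the 85 blue points lie on both sides of 0.

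Markers of other liver cells were read along the same index. Hepatocyte markers had 0 of 16 called by edgeR or DESeq2 and 0 at an unadjusted *P* under 0.05, with 8 positive slopes and a median slope of -0.01. In HOX 15 of 16 were lower, the exception being *HGFAC*, where 48.8% of all genes were lower. These markers too were named through the list selected on this contrast, so that this direction is no independent evidence. Without HOX animal 1, 3 of the 16 were called with a negative slope (*CPN2*, *SLC22A7* and *VTN*), where 1.93% of all genes were, and the median slope was -0.13. Their summed level correlated with the index within groups at r = -0.26 over 16 livers, a description only. HOX animal 1 was the lowest HOX liver for both, and this r is given only with it. The sum is weighted to its most abundant genes, *FGG*, *VTN* and *AGT*. The part of the summed level in the gradient was not tested.

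*CD34*, a marker of endothelium and of blood progenitors, had a slope of 0.84 ± 0.15 (SE, adjusted *P* = 0.00146). It ran from 6.35 CPM in CON animal 6 to 29.7 CPM in CON animal 5 and from 15.6 CPM in HOX animal 5 to 54.0 CPM in HOX animal 7. The macrophage marker *CD163* had a slope of 0.30 ± 0.199 (adjusted *P* = 0.499), and it was lowest in HOX animal 1 at 61.9 CPM, against 254 to 419 CPM in CON. Without that liver its slope was 0.07. The 3 stellate cell and fibroblast markers (*ASPN*, *TGFBI* and *ADAMTSL2*) had a median slope of 0.12, with 0 called by edgeR or DESeq2 and 0 at an unadjusted *P* under 0.05. Without HOX animal 1 that median was -0.02. Megakaryocyte and leukocyte markers had 0 named members.

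The index was also set against the main axes of all tested genes. The second principal component of all tested genes held 18.6% of the variance and correlated with the log2 index at r = -0.81 within groups over 16 livers, as a description. Positive followers together took 1.81% of reads in CON animal 4, a median of 3.01% and 7.32% in HOX animal 4.

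Groups were also compared at equal index. With the index in the model, edgeR called 1 gene between HOX and CON (0.0117%), which was *GPD1*, the glycerol-3-phosphate dehydrogenase of the cytosol, lower in HOX by a log2 difference of -1.35 ± 0.206 (SE, adjusted *P* = 0.0431). It is named because it was the only call, and it was called in the fit without the index too (-1.27 ± 0.174, adjusted *P* = 0.00847). At an unadjusted *P* under 0.05 there were 826 genes (9.63%) at equal index and 1022 (11.9%) without it, and DESeq2 called 123 and 237. Leaving out 1 liver gave 0 calls at equal index in 5 of 16 fits, those without CON animals 1 or 5 or HOX animals 1, 2 or 3, with 3 calls without HOX animal 4 and 2 without HOX animal 5. *PLAGL1* was 0.50 higher in HOX at equal index (log2, adjusted *P* = 0.446), where its difference without the index was 1.44. The index genes and *PLAGL1* were named through the list selected on this contrast, and *PLAGL1* was picked for its slope. Its smaller difference at equal index is therefore a description and no independent evidence. The counts of genes with and without the index share that limit of the index.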

How the data were processed

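Liver RNA of 9 CON and 7 HOX fetuses was analysed. The authors made polyA-enriched libraries (RIN 6.9 to 8), sequenced 2 × 150 bp reads, mapped them with STAR (2.7.10b in the submitters' processing notes) to the genome ARS-UI_Ramb_v1.0 and its Ensembl gene models, and deposited the raw read counts of each gene. The counting rule and the use of strand are not given in the sources used here, so counts of overlapping or near-identical genes are uncertain. Totals of 23955166 to 33952503 counts limit precision mainly for genes with few reads.

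Groups, sex and animal numbers came from the labels. The 4 genes, the gene lists and the rule for named genes were chosen with earlier results of these data known. Symbols came from the study's supplementary list (487 identifiers, 438 with a symbol), whose genes were chosen on these livers. A gene table of another assembly matched 0 identifiers.

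Genes reaching 250 reads in 8 or more livers were fitted in R 4.3.3 with edgeR 4.0.16 (quasi-likelihood test, TMM normalization) and called at an adjusted *P* under 0.15 (Benjamini-Hochberg), the filter and threshold following the study's methods. The study reports more genes passing its filter than passed here. Log2 CPM used a prior count of 2. The 4 genes were left out of the adjustment in the fits on the index. The named genes were the 4, all tested genes of the erythroid lists, the 8 with a positive and the 8 with a negative slope of smallest *P* among other genes with a symbol, and 2 in each direction without one. Genes of the other lists and *GPD1* fall outside this rule. Alternatives were DESeq2 1.42.0 (Wald test), 2 other scalings, 2 other filters, sex as a covariate, a replicate block, other forms of the index and each liver left out. Looking up the calls of either group in the other, the difference in slope, and fits without HOX animal 1 or several livers together were chosen or extended after seeing the data. Plots were made in Python 3.11.15 with matplotlib 3.10.9.

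Libraries were compared in pairs, and the lowest chi-square per degree of freedom was 34.3, so no pair was a duplicate.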

Additional observations from a re-analysis of the deposited data

Results flagged for a closer look

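In each group of livers the most extreme value of each named gene was compared with its nearest neighbour, as a share of the whole range of the group on the log2 CPM scale. Of 118 groups tested 11 stood out by Dixon's criterion, which chance meets in about 1 of 20 groups, and 9 of the 11 were HOX animal 1. In that liver the lowest values were those of *CDAN1* (0.748 of the range, 4.03 against 4.90 log2 CPM for the next liver), *FAM117A* (0.804, 2.94 against 4.92), *C9* (0.802, 8.31 against 9.62), *LECT2* (0.722, 7.35 against 8.83), *CD163* (0.614, 5.95 against 7.42) and *TGFBI* (0.659, 4.71 against 6.20). The highest values in that liver were those of *MPC1* (0.718, 6.57 against 5.35), *ALG5* (0.646, 5.68 against 5.11) and *CHID1* (0.585, 7.37 against 7.00).

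In CON, *FKBP11* was highest in animal 6 (0.709, 6.43 against 5.72 log2 CPM), the liver lowest on the erythroid index. *F7* was lowest in animal 5 (0.525, 7.77 against 8.33), the CON liver highest on the index. None of the 4 erythroid genes nor the index stood out in either group.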

How the results depend on the processing

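The 4 erythroid genes were higher in HOX in all 100 alternative values computed for them. These values refit the same livers on the contrast that had selected the genes, so the count is a description. At an unadjusted *P* under 0.05, edgeR picked 0 of the 4 with the replicate block and 1 in the same 14 livers without it. Without HOX animals 1, 4 and 7 together it picked 0. HOX against CON gave 5 called genes, 1 at 0.05, with total counts only, without the read minimum, and without HOX animals 1, 4 and 7 together, and 237 with DESeq2. Leaving out each liver gave 1 (for example without CON animal 4) to 47 (without HOX animal 5). Without HOX animal 1 there were 12, of which 3 were higher and 9 lower in HOX, where the fit over all livers called 0 higher. The gradient gave 697 calls, 405 at 0.05, 425 in CON livers alone, 294 in HOX livers alone, 981 (629 positive) when the index left out *CPOX*, 727 without HOX animals 1, 4 and 7, and 424 (without CON animal 5) to 756 (without HOX animal 5) when each liver was left out. At equal index there was 1 call, 2 without the read minimum, 123 with DESeq2, 0 without those 3 livers, and 0 to 3 when each liver was left out. Sex gave 2 calls, 7 with DESeq2 and 1 to 2 leaving out each liver. Its interaction with treatment gave 0, 6 and 0 to 3. The cause of these differences was not tested.

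The deviations of same-numbered animals correlated at -0.31 to 0.15 over 7 pairs, 3 of them above 0.1. So few pairs cannot show whether the animal numbers pair the livers. With the replicate number as a block, over 14 livers, 0 genes were called between HOX and CON, 456 for the gradient and 0 at equal index. Without the block the same 14 livers gave 1, 572 and 1.

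Slopes changed sign for *SELENBP1* (0.0644 with the replicate block, 0.281 in HOX livers alone, and -0.214 to 0.00585 leaving out each liver), *ALAS1* (0.0546 in HOX livers alone) and *CRKL* (-0.0289 in HOX livers alone, and -0.0228 to 0.0578 leaving out each liver). None of the 3 was called in the fit over all livers. The sex difference of *TFRC* ran from -0.133 to 0.222 leaving out each liver. Named positive followers kept their call in 243 of 243 alternatives and named negative ones in 222 of 264. Depth limits the genes with the fewest reads, *EPOR*, *ORC1* and *FADS3* among those named.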
